A study of Mus musculus with 24 samples.

Results

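The rescue diet is a feed rich in calcium, phosphorus and lactose that keeps minerals available to mice that cannot make the hormone 1,25-dihydroxyvitamin D3 (1,25D). Its effect on the duodenum was read from the libraries of mice that received vehicle and no hormone. These were the 6 rescue diet and the 6 normal diet libraries titled as vehicle, 12 of the 24 libraries in the series. All mice, controls included, were 8-week-old males without Cyp27b1, the enzyme that makes 1,25D from its precursor, and both diets lacked vitamin D. From weaning, given as 3 weeks in the series text, the normal diet group was fed 0.47% calcium and 0.3% phosphorus. The rescue diet group was fed 2% calcium, 1.25% phosphorus and 20% lactose, so the 3 components changed together and their effects cannot be told apart. RNA was taken 6 h after the injection. The other 12 libraries, 6 per diet, came from mice given 2 ng of 1,25D per g of body weight, and they are used here for comparison. The labels give 12 mice per diet and 8 injected mice per group but do not tie the 6 libraries of a group to animals. With a vehicle and a 1,25D group on each diet these counts do not match, and the sources used here do not explain it. The p-values therefore refer to the variation among libraries, part of which may be technical.

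The duodenum absorbs calcium by a route through the enterocyte, in which the channel Trpv6 admits it at the brush border, the carrier calbindin (S100g) moves it through the cytosol and the pump Atp2b1 exports it into blood. 1,25D and its receptor Vdr switch these genes on. When calcium in the food is plentiful it can also pass between the cells, a path that needs no hormone. Lactose is split at the brush border by lactase into glucose and galactose, which enter through the transporter Slc5a1 and leave through Slc2a2.

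No gene passed the test for diet under vehicle. Of 20006 genes tested with limma on log2(RPKM + 0.5), 0 were called higher and 0 lower on the rescue diet (0% in each direction) at an adjusted p under 0.05 (Benjamini-Hochberg, across every gene tested). The smallest adjusted p was 0.101, shared by Maoa and Akr1c13, and 9 genes had an adjusted p under 0.25. RPKM is the number of reads per kilobase of transcript, scaled to the library's reads. At an unadjusted p under 0.05, 1317 genes (6.58%) lay higher and 120 (0.6%) lower. This excess of higher genes depended on the scaling. In the deposited RPKM the median log2 difference of all genes, rescue minus normal, was 0.101 and 68.9% of genes lay above 0. After quantile normalization the median was 0.004, 51.1% lay above 0, and 518 genes lay higher against 398 lower at an unadjusted p under 0.05. Median-of-ratios scaling gave 502 higher and 367 lower with a median of -0.005. A log2 difference in deposited RPKM is therefore read here against 0.101. Without normal vehicle replicate 6 the median was 0.018 and the counts were 642 and 240. Without normal vehicle replicate 4, 4 genes were called higher (0610031J06Rik, Akr1c13, Maoa and 2210023G05Rik) with a smallest adjusted p of 0.0402.

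**Figure D1:**
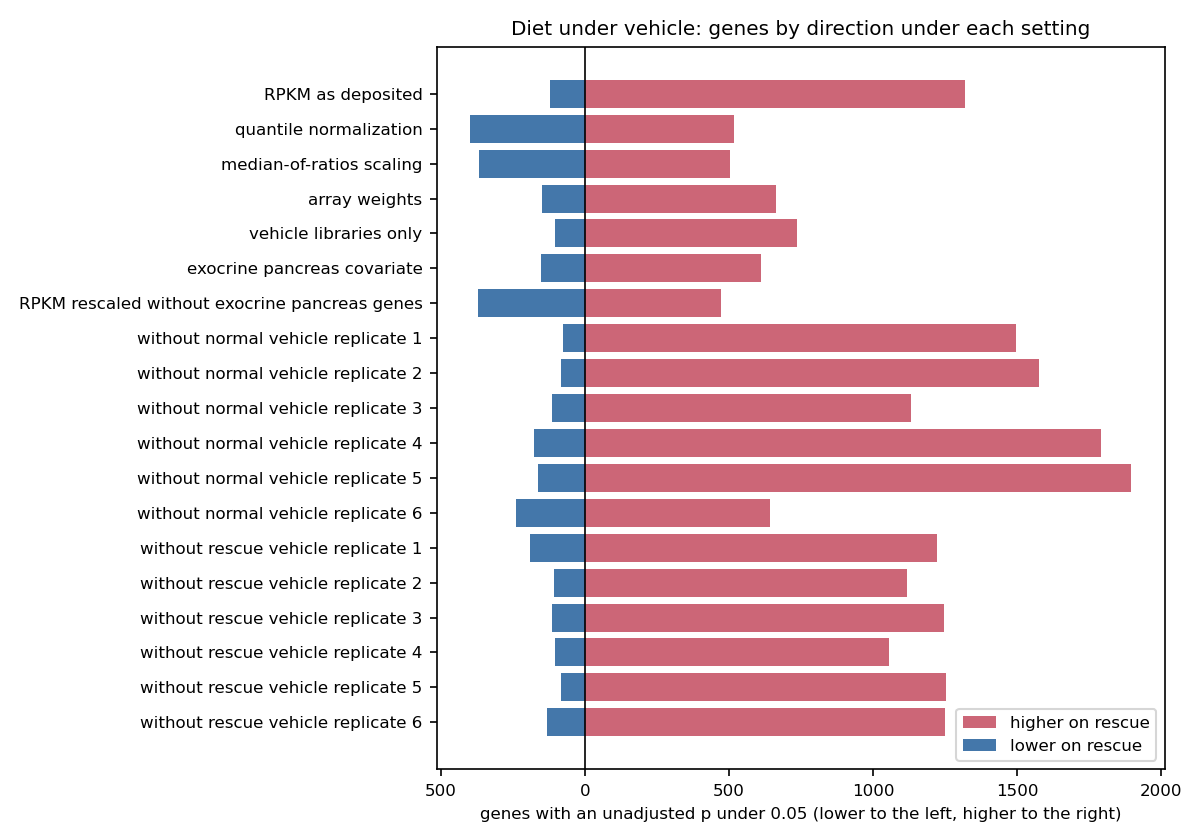
Number of genes with an unadjusted p under 0.05 for rescue against normal diet under vehicle, higher on rescue to the right and lower to the left, one pair of bars per setting. The deposited RPKM gave 1317 and 120, quantile normalization 518 and 398, and leaving out normal vehicle replicate 6 gave 642 and 240.

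Separately from the test, all 6 libraries of one diet can lie beyond all 6 of the other. That held for 43 genes higher on rescue (0.215% of those tested) and for 2 lower on rescue (0.01%). With so many genes tested, some split in this way by chance alone. Whether the counts exceed that chance number was not tested, so a complete split is not read here as an effect of diet. The median log2 difference of the 43 was 0.50. They include enzymes of small-molecule metabolism (Maoa, Akr1c12, Akr1c13), the phosphate importer Slc20a2, Nadk of NADP synthesis and Adss of adenine nucleotide synthesis. The 2 lower genes were Slc41a1 and BC064078; the function of BC064078 is not given in the sources used here.

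Depth and the tissue held by each library were set beside these values. Relative depth, inferred from the spacing of low RPKM values, ran from 0.701 to 1.69 on the normal and from 0.637 to 1.64 on the rescue diet (exact permutation p = 0.442, n = 6 each). The duodenal transcription factor Pdx1 lay between 15.4 and 33.6 RPKM in the 12 libraries and Gata4 between 12.6 and 34.1. The ileal bile acid carrier Fabp6 was listed at 0 in 9 of the 12 and reached 0.266 RPKM at most. Digestive enzymes of the exocrine pancreas, an organ that lies against the duodenum, were present in unequal amounts. Together with the amylases they took a lowest share of 0.713%, a median of 5.15% and a highest of 34.4% of summed RPKM on the normal diet, and 0.0169%, 0.84% and 4.53% on the rescue diet. The difference of means was -8.5 percentage points (exact two-sided permutation p = 0.0325, adjusted over 5 single values 0.163). The highest share belonged to normal vehicle replicate 6. With the level of the pancreas genes as a covariate, 0 genes were called, 611 lay higher and 151 lower at an unadjusted p under 0.05, and the median of all genes was 0.046. Smooth muscle genes took 0.109% ± 0.0564 and 0.11% ± 0.0508 (SD, n = 6 each; exact permutation p = 0.981). In whole tissue, fewer cells of a type and less RNA per cell cannot be told apart.

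**Figure D2:**
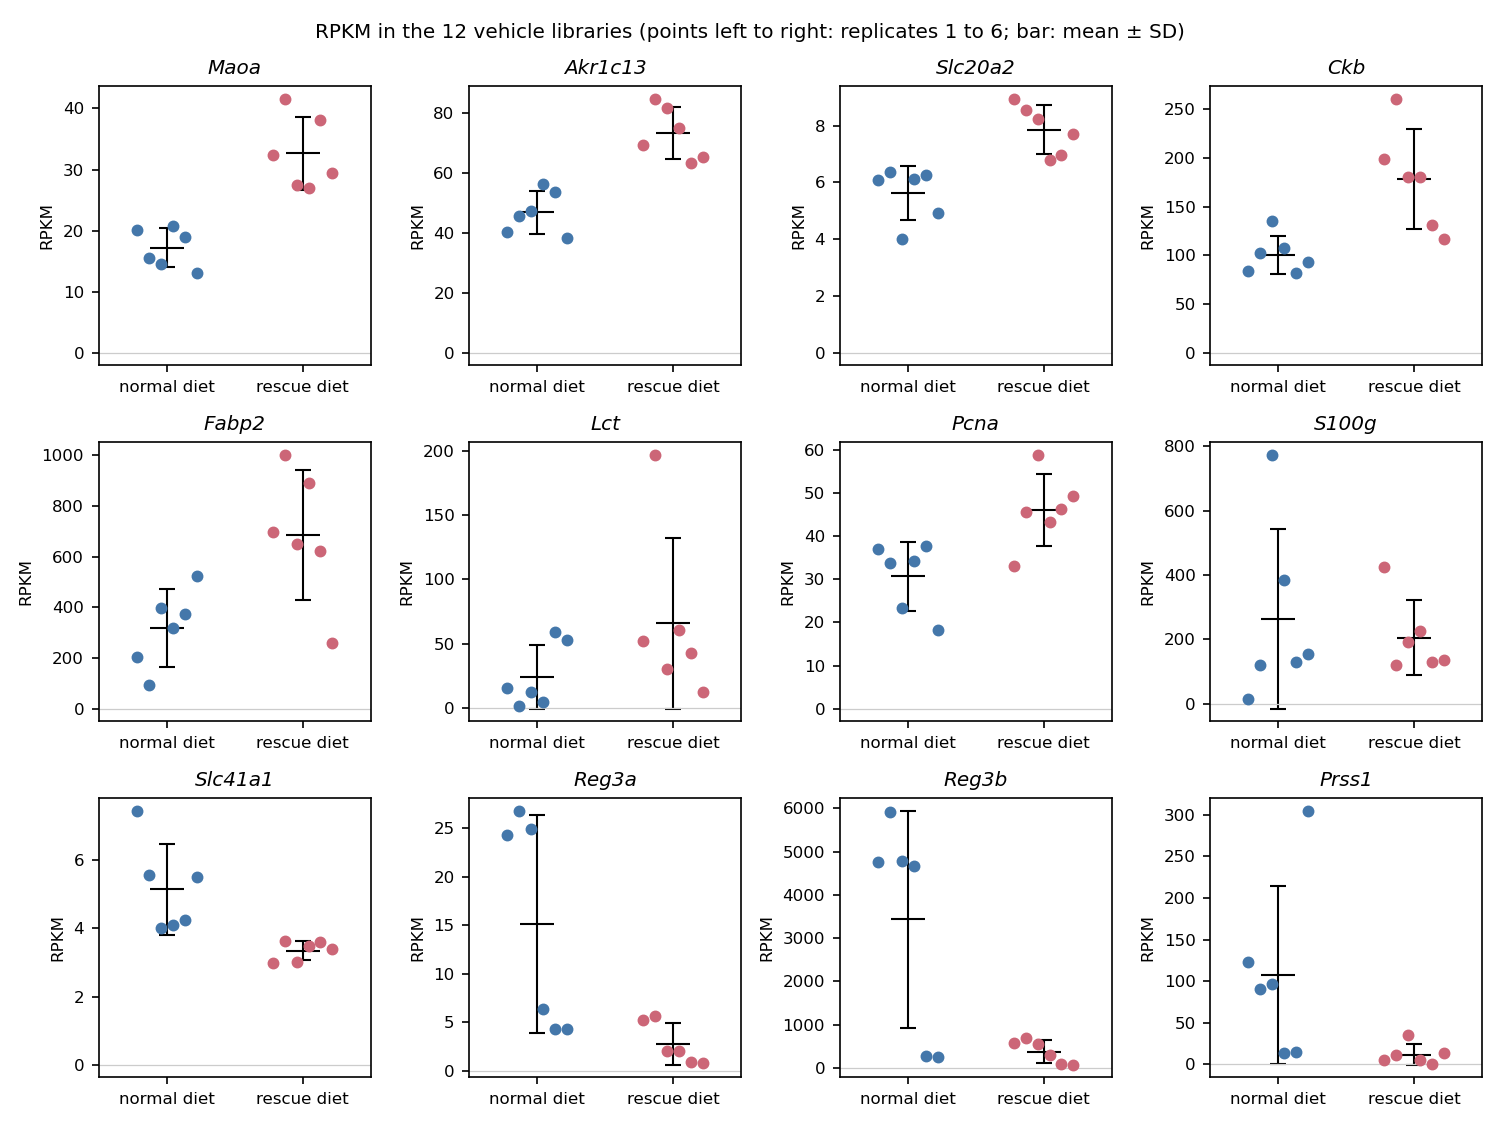
RPKM of 12 genes in each vehicle library, replicates 1 to 6 from left to right within a diet, with mean ± SD (n = 6 each). Points of the diets do not overlap for Maoa, Akr1c13, Slc20a2 and Slc41a1, and they overlap for the other 8.

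Maoa had the smallest p. It encodes monoamine oxidase A, a mitochondrial enzyme that breaks down serotonin and other amines. Its lowest, median and highest values were 13.1, 17.3 and 20.8 RPKM on the normal diet and 26.9, 30.9 and 41.6 RPKM on the rescue diet, so every rescue library exceeded every normal one. The means were 17.2 ± 3.20 and 32.6 ± 5.99 RPKM (SD, n = 6 each), a log2 difference of 0.91 (SE 0.16, limma adjusted p = 0.101). Over the alternative settings its log2 difference stayed between 0.72 and 0.96.

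Akr1c13 is an aldo-keto reductase, one of a tight family of enzymes that reduce carbonyl groups of steroids and foreign compounds. Its lowest, median and highest values were 38.1, 46.5 and 56.3 RPKM on the normal diet and 63.4, 72.0 and 84.7 RPKM on the rescue diet. The log2 difference was 0.64 (SE 0.12, limma adjusted p = 0.101). Its close relative Akr1c12 ran from 49.3 to 82.3 RPKM with normal feed and from 84.3 to 106 RPKM with rescue feed (log2 0.44, adjusted p = 0.567). Neither gene's groups overlapped. The pair are similar enough that reads may be shared between them, so they may not be separate measurements. Hsd17b2, which oxidizes sex steroids, had a log2 difference of 0.76, from a mean of 4.05 to 7.17 RPKM (limma adjusted p = 0.470), and its groups overlapped.

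Other genes at the head of the list belong to different processes. 2210023G05Rik, named Ces2g in RefSeq and a member of the carboxylesterases that split esters of drugs and lipids, went from 6.59 ± 1.77 to 12.0 ± 2.33 RPKM (log2 0.83, limma adjusted p = 0.143). 0610031J06Rik, named Glmp, a lysosomal membrane protein, went from 4.70 ± 1.41 to 7.60 ± 0.705 RPKM (log2 0.68, adjusted p = 0.175). Snf8, a subunit of the ESCRT-II complex that sorts membrane cargo, went from 10.5 ± 3.00 to 17.0 ± 1.38 RPKM (log2 0.72, adjusted p = 0.217). For each of these the 6 rescue libraries lay above the 6 normal ones (SD, n = 6 each). Snf8 was at its lowest, 4.94 RPKM, in normal vehicle replicate 6.

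Ckb, the brain-type creatine kinase that regenerates ATP near sites of use, was among the more abundant. Its lowest, median and highest values were 82.2, 97.6 and 135 RPKM on the normal and 117, 180.5 and 261 RPKM on the rescue diet. The groups overlapped in 2 rescue libraries, replicates 5 and 6, that lay below the highest normal one. The log2 difference was 0.79 (SE 0.20, limma adjusted p = 0.470). Scin, the calcium-dependent actin-severing protein scinderin, ran from 16.4 to 26.2 RPKM with normal feed and from 22.7 to 72.0 RPKM with rescue feed (log2 0.85, SE 0.19, adjusted p = 0.351). Lamb3, a chain of basement membrane laminin, ran from 1.67 to 4.13 and from 4.28 to 8.93 RPKM without overlap (log2 0.90, SE 0.28, adjusted p = 0.567).

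Genes of hormone-driven calcium transport did not pass the test. Trpv6 was under 1 RPKM in all 12 libraries, at 0.281 ± 0.196 and 0.196 ± 0.166 RPKM (SD, n = 6 each), with a log2 difference of -0.16 (95% interval -1.08 to 0.77). S100g varied widely between libraries. Its lowest, median and highest values were 13.6, 142 and 774 RPKM on the normal diet and 119, 165 and 426 RPKM on the rescue diet. Its mean was higher on the normal diet, 263 against 205 RPKM, while its log2 difference was 0.32 (95% interval -0.91 to 1.56). That positive sign rests on normal vehicle replicate 1 with 13.6 RPKM, and without that library the log2 difference was -0.35. Atp2b1 lay at 78.5 ± 28.9 and 112 ± 36.4 RPKM (log2 0.52, 95% interval 0.06 to 0.98, limma adjusted p = 0.668), and the groups overlapped.

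Of 15 genes tested in the transcellular calcium list, 0 were called. At an unadjusted p under 0.05, 2 lay higher, Atp2b1 among them, and none lay lower, and 12 lay above 0. Among all genes 6.58% lay higher and 0.6% lower at that p, and 68.9% lay above 0. The list's median log2 difference was 0.22 in deposited RPKM and 0.07 after quantile normalization, beside 0.101 and 0.004 for all genes. Vdr was at 62.9 ± 22.6 and 74.1 ± 21.3 RPKM (SD, n = 6 each; log2 0.27, 95% interval -0.25 to 0.78). Cyp24a1, which starts the breakdown of 1,25D and is among its most responsive targets, was near 0 in these mice without hormone. Its lowest, median and highest values were 0.131, 0.557 and 4.03 RPKM on the normal and 0.016, 0.237 and 0.712 RPKM on the rescue diet (log2 -0.74, 95% interval -1.64 to 0.16). Of 18 textbook 1,25D targets tested, 15 lay above 0 and 3 lay higher at an unadjusted p under 0.05, namely Abcb1a, Slc37a2 and Atp2b1. The list's median was 0.30 (0.14 after quantile normalization), beside 68.9% above 0 and 6.58% higher at that p among all genes. Cyp27b1 itself, at 0.228 ± 0.153 and 0.206 ± 0.104 RPKM, and the calcium sensor Casr, at 0.238 ± 0.173 and 0.273 ± 0.184 RPKM, did not reach the minimum of 0.5 RPKM in 6 libraries.

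Claudins and their scaffold form the seal through which calcium passes between cells. Of 18 tight junction genes tested, 0 were called and 0 had an unadjusted p under 0.05 in either direction by limma. Among all genes 6.58% lay higher and 0.6% lower at that p. The tight junction genes' median log2 difference was 0.11 as deposited and -0.01 after quantile normalization, and it followed that of all genes. Cldn2, which forms a pore for small cations, lay at 117 ± 50.6 and 113 ± 28.5 RPKM (log2 0.04, 95% interval -0.48 to 0.56). Cldn12 had a log2 difference of 0.01 (95% interval -0.28 to 0.30) and Cldn15 of 0.21 (-0.12 to 0.53). At this spread between libraries the interval for Cldn12 is the tightest of the 3.

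Phosphate genes were among the groups farthest above the median of all genes under vehicle. Of 15 genes of phosphate handling tested, 0 were called, and 13 lay above 0, beside 68.9% of all genes. At an unadjusted p under 0.05, 6 lay higher and none lower, beside 6.58% and 0.6% of all genes. The list's median log2 difference was 0.42 as deposited, 0.25 after quantile normalization and 0.43 without normal vehicle replicate 6. The medians of all genes were 0.101, 0.004 and 0.018. In the libraries after 1,25D the phosphate list's median was -0.35, beside 0.118 for all genes. There 0 of the 15 lay higher and 3 lower at an unadjusted p under 0.05, beside 5.17% and 3.2% of all genes. Slc20a2, a sodium-dependent phosphate importer (also known as Pit2), had a lowest, median and highest value of 4.01, 6.09 and 6.38 RPKM on the normal diet. On the rescue diet these were 6.78, 7.97 and 8.95 RPKM, so the groups did not overlap. Its log2 difference was 0.46 (SE 0.13, limma adjusted p = 0.475) and lay between 0.33 and 0.50 over the alternative settings. Slc20a1, the related importer, lay at 32.2 ± 8.77 and 36.2 ± 11.1 RPKM (log2 0.16, and -0.02 after quantile normalization). Slc34a2, the phosphate carrier regulated by 1,25D in the gut, did not pass the filter, with means of 0.119 and 0.105 RPKM.

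Other members of the phosphate list act around these carriers. Ank, which exports pyrophosphate and ATP, went from 13.0 ± 4.45 to 18.5 ± 3.34 RPKM (log2 0.54, limma adjusted p = 0.567). Slc9a3r1, the scaffold NHERF1 that anchors transporters under the brush border, went from 64.7 ± 8.18 to 104 ± 44.7 RPKM (log2 0.58). The intestinal alkaline phosphatases, which free phosphate at the brush border, were Alpi at 166 ± 72.6 and 272 ± 117 RPKM (log2 0.72) and Akp3 at 164 ± 108 and 322 ± 159 RPKM (log2 1.20). For these 4 genes the groups overlapped (SD, n = 6 each). For both phosphatases normal vehicle replicates 1 and 2 were the lowest of the 12 libraries.

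Slc41a1, a magnesium exporter, was 1 of the 2 genes apart and lower on the rescue diet. Its lowest, median and highest values were 4.01, 4.87 and 7.45 RPKM on the normal and 2.98, 3.42 and 3.64 RPKM on the rescue diet. All 6 rescue libraries lay below all 6 normal ones, with a log2 difference of -0.52 (SE 0.15, limma adjusted p = 0.544). The difference was larger after quantile normalization, at -0.65. Of the 12 magnesium genes tested, 10 lay above 0, beside 68.9% of all genes, with a median of 0.14 (-0.01 after quantile normalization). Slc41a1 was the only one with an unadjusted p under 0.05, beside 6.58% higher and 0.6% lower of all genes. The magnesium channel Trpm6 was low on both diets (0.652 ± 0.235 and 0.434 ± 0.156 RPKM).

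Iron and zinc uptake genes did not pass the test. Cybrd1, the brush border reductase that prepares iron for uptake, ran from 4.69 to 40.5 RPKM with normal feed and from 13.2 to 55.2 RPKM with rescue feed (log2 1.07, SE 0.47, limma adjusted p = 0.676). Of 19 iron and copper genes tested, 4 lay higher and 1 lower at an unadjusted p under 0.05, with a median of 0.26 (0.09 after quantile normalization), beside 6.58% higher and 0.6% lower of all genes. Without the library of normal vehicle replicate 6, 3 lay higher and 0 lower, beside 642 and 240 of all 20006 genes. Slc39a4, the zinc importer of the brush border, went from 13.2 ± 4.92 to 22.1 ± 7.99 RPKM (log2 0.72, adjusted p = 0.678). It was the only one of 22 zinc and manganese genes with an unadjusted p under 0.05, beside the same 6.58% and 0.6% of all genes. The zinc and manganese list's median of 0.13 was near that of all genes. Leaving out normal vehicle replicate 6, 0 of the 22 lay higher and 1 lower at that p, again beside 642 and 240 of all genes.

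Lactase and the sugar genes are the members nearest to the lactose in the rescue diet. Lct, which encodes lactase, had a lowest, median and highest value of 1.73, 14.0 and 58.8 RPKM on the normal and 12.5, 47.8 and 197 RPKM on the rescue diet. The groups overlapped widely, since normal replicates 5 and 6 lay at 58.8 and 52.7 RPKM and rescue replicate 6 at 12.5 RPKM. Its log2 difference was 1.74 (SE 0.70, limma adjusted p = 0.641) and lay between 1.21 and 2.26 over the alternative settings. Treh, the trehalose-splitting enzyme, went from 19.1 ± 9.56 to 35.8 ± 21.0 RPKM (log2 0.84, adjusted p = 0.697). Sis, sucrase-isomaltase, had a log2 difference of 0.22 (95% interval -0.35 to 0.80).

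The galactose and glucose carriers had smaller log2 differences than lactase. Slc5a1 lay at 849.5 ± 318 and 1142 ± 464 RPKM (SD, n = 6 each; log2 0.36, 95% interval -0.46 to 1.18). Slc2a2 had a log2 difference of 0.31 (95% interval -0.41 to 1.02), and the fructose carrier Slc2a5 of 0.44. Slc5a4a, a low-abundance relative of Slc5a1, went from 0.729 ± 0.387 to 2.86 ± 2.53 RPKM (log2 1.17, limma adjusted p = 0.602). Of the 13 disaccharidases and hexose carriers tested, 10 lay above 0, beside 68.9% of all genes. Lct and Slc5a4a lay higher at an unadjusted p under 0.05, beside 6.58% of all genes. The list's median was 0.31 as deposited and 0.27 after quantile normalization. For Sis, Slc5a1, Slc2a2 and Fabp2, rescue vehicle replicate 6 lay below every other rescue library.

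Enzymes that process the absorbed sugars had smaller and steadier differences. Of 23 genes of hexose metabolism tested, 22 lay above 0, and 9 lay higher and none lower at an unadjusted p under 0.05. Among all genes 68.9% lay above 0, 6.58% higher and 0.6% lower. The list's median was 0.29 (0.15 after quantile normalization). Leaving out normal vehicle replicate 6 gave a count of 7 and a median of 0.19. In that fit 642 of all 20006 genes lay higher, and the median of all genes was 0.018. Galk1, which phosphorylates galactose, went from 8.09 ± 1.95 to 10.8 ± 1.85 RPKM (log2 0.42, limma adjusted p = 0.578). Fbp2, a fructose bisphosphatase of gluconeogenesis, ran from 134 to 191 RPKM with normal feed and from 181 to 257 RPKM with rescue feed (log2 0.42, adjusted p = 0.567). Dak (Tkfc in RefSeq), which handles the triose made from fructose, ran from 32.0 to 48.0 and from 40 to 88.5 RPKM (log2 0.54, adjusted p = 0.475). Pklr, a pyruvate kinase, ran from 24.5 to 37.0 and from 35.3 to 67.3 RPKM (log2 0.49, adjusted p = 0.487). The groups overlapped for all 4 enzymes.

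Products of mature enterocytes outside sugar and mineral handling also lay above 0 for the most part. Of 40 xenobiotic clearance genes tested, 39 lay above 0 and 10 lay higher at an unadjusted p under 0.05. Among all genes these shares were 68.9% and 6.58%. The list's median was 0.42 (0.29 after quantile normalization). Leaving out normal vehicle replicate 6 gave a count of 8 and a median of 0.40. In that fit 642 of all 20006 genes lay higher, and the median of all genes was 0.018. Abcb1a, a P-glycoprotein that pumps foreign compounds back into the lumen, ran from 15 to 26.7 RPKM with normal feed and from 25.6 to 62.9 RPKM with rescue feed. Only rescue replicate 6 lay within the normal range (log2 0.86, SE 0.23, limma adjusted p = 0.475). Gstm6, a glutathione transferase, had a log2 difference of 0.89 and Ugt2b34, a glucuronosyltransferase, of 0.54, from 441 ± 96.7 to 632 ± 65.8 RPKM. Cyp3a11, the main drug-oxidizing enzyme, spread from 16.1 to 166 RPKM with normal feed and from 24.5 to 229 RPKM with rescue feed, with a log2 difference of 0.66 (SE 0.70).

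Fat absorption genes lay in the same range. Fabp2, the intestinal fatty acid binding protein, had a lowest, median and highest value of 91.9, 346 and 524 RPKM on the normal and 258, 674 and 1002 RPKM on the rescue diet. In 5 of the 6 rescue libraries it exceeded every normal one, and replicate 6 did not (log2 1.19, SE 0.37, limma adjusted p = 0.567). Fabp1, its liver-type relative, ran from 201 to 450.4 and from 281 to 988 RPKM (log2 0.94, SE 0.30, adjusted p = 0.567), again with only rescue replicate 6 in the normal range. Apoa4, an apolipoprotein of chylomicrons, went from 922 ± 499 to 2101 ± 1479.8 RPKM (log2 1.06, adjusted p = 0.715). Of 25 lipid uptake genes tested, 22 lay above 0 and 5 lay higher at an unadjusted p under 0.05. The same shares of all genes were 68.9% and 6.58%. The lipid list's median was 0.38 (0.21 after quantile normalization). The vitamin A genes Rdh7, a retinol dehydrogenase (log2 1.02), Rbp2, a retinol carrier (0.87), and Bcmo1, which cleaves beta-carotene (1.17), lay higher with overlapping groups, while the retinoid list's median was 0.13.

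The brush border itself and energy metabolism had smaller differences. Of 19 brush border cytoskeleton genes tested, 19 lay above 0 and 3 lay higher at an unadjusted p under 0.05. For all genes these shares were 68.9% and 6.58%. The list's median was 0.35 (0.20 after quantile normalization). Krt8, a keratin of simple epithelia, went from 254 ± 53.4 to 343 ± 33.3 RPKM (log2 0.46) and Myo1a, the myosin that ties the microvillus core to its membrane, from 187 ± 28.9 to 242 ± 51.1 RPKM (log2 0.35). Of 79 nuclear oxidative phosphorylation genes tested, 13 lay higher and none lower at an unadjusted p under 0.05. For all genes it was 6.58% and 0.6%. The median of the 79 was 0.18, which became 0.03 after quantile normalization. Their count of higher genes became 7 without normal vehicle replicate 6, beside 642 of 20006 for all genes in that fit. Uqcrq of complex III had a log2 difference of 0.69 and Ndufa1 of complex I of 0.63 (limma adjusted p = 0.475 for both).

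**Figure D3:**
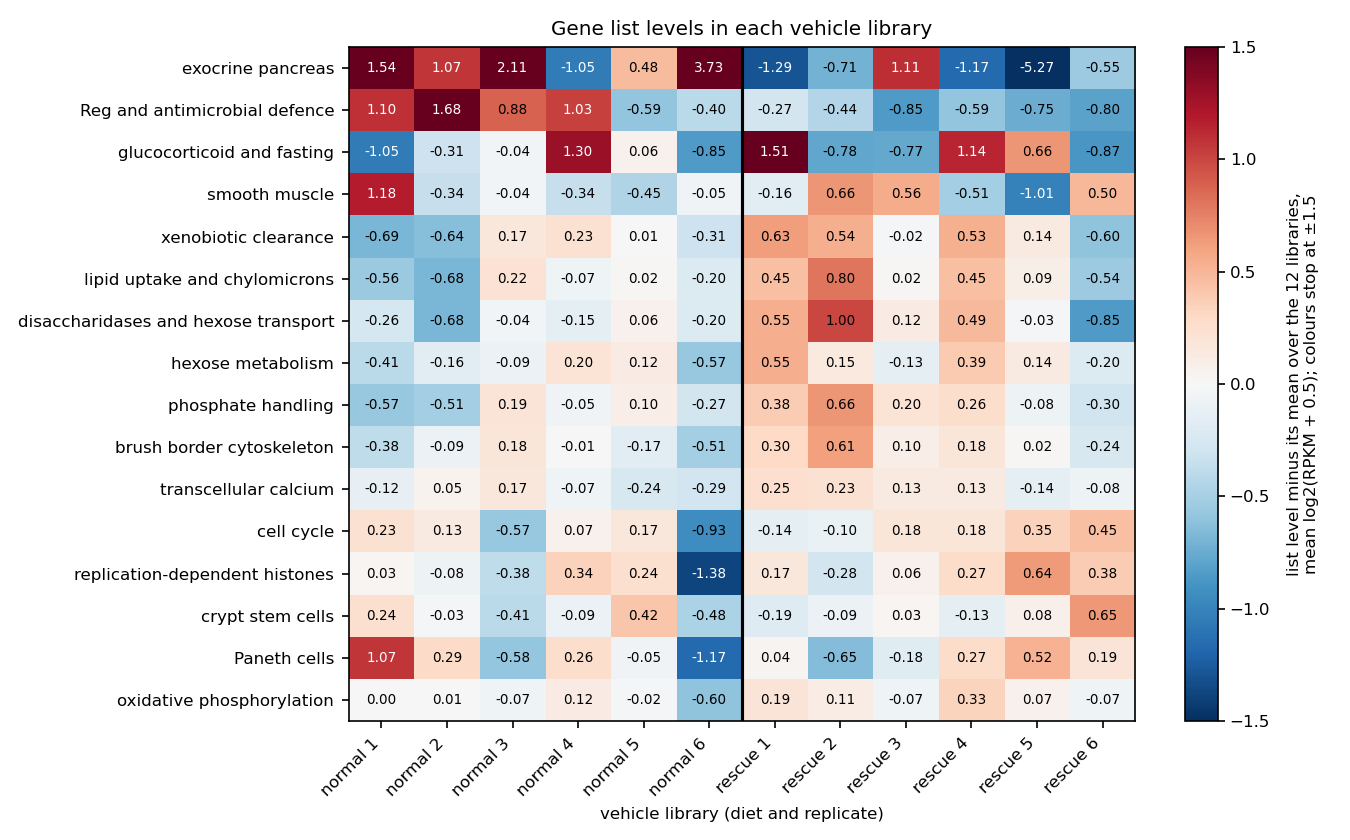
Level of 16 gene lists in each vehicle library, as the mean log2(RPKM + 0.5) of the list minus its mean over the 12 libraries. Enterocyte lists such as xenobiotic clearance are low in normal replicates 1 and 2 and rescue replicate 6, the exocrine pancreas list is highest in normal replicate 6 (3.73), and the Reg list is high in normal replicates 1 to 4.

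The enterocyte lists varied together among libraries of one diet. The mean level of the xenobiotic list, relative to its mean over the 12 libraries, was -0.69 and -0.64 on the log2 scale in normal replicates 1 and 2 and -0.60 in rescue replicate 6. It was 0.63, 0.54 and 0.53 in rescue replicates 1, 2 and 4. The lipid list ran from -0.68 in normal replicate 2 to 0.80 in rescue replicate 2, and its 3 lowest libraries were the same as those of the xenobiotic list. The phosphate list was also lowest in these 3, at -0.57 and -0.51 in normal replicates 1 and 2 and -0.3 in rescue replicate 6. In 5 of 6 rescue libraries the disaccharidase list was -0.03 or higher, and in rescue replicate 6 it was -0.85. The part of these 3 low libraries in the lists' diet differences was not tested.

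Genes of dividing crypt cells lay slightly higher. Of 31 cell cycle genes tested, 29 lay above 0 and 5 lay higher at an unadjusted p under 0.05. Among all genes the shares were 68.9% and 6.58%. The list's median was 0.29 (0.15 after quantile normalization). Without normal vehicle replicate 6 the count was 3 and the median 0.11. For all genes that fit gave 642 of 20006 higher and a median of 0.018. Pcna, the sliding clamp of DNA replication, had a lowest, median and highest value of 18.2, 34.1 and 37.7 RPKM on the normal and 33.0, 45.8 and 58.9 RPKM on the rescue diet (log2 0.60, SE 0.19, limma adjusted p = 0.567). Only rescue replicate 1 lay within the normal range. Mcm5, a subunit of the replicative helicase, went from 7.27 ± 2.72 to 12.3 ± 2.60 RPKM (log2 0.78) and Tyms, which makes thymidylate, from 7.54 ± 2.40 to 10.9 ± 1.81 RPKM (log2 0.56).

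Replication-dependent histones had a median of 0.44 in deposited RPKM, the highest of the 50 lists on that scale, and of 0.26 after quantile normalization, where the xenobiotic list was higher at 0.29. They had 61 of 62 genes above 0 and 22 higher at an unadjusted p under 0.05, beside 68.9% and 6.58% of all genes. Without normal vehicle replicate 6, where the list's level was -1.38, the 22 became 1 and the median 0.21. For all genes that fit gave 642 of 20006 higher and a median of 0.018. Hist1h2an, an H2A gene, was at 219 RPKM in that library and between 441 and 762 RPKM in the other normal ones, against 657 to 949 RPKM on the rescue diet. Histone genes are near copies of each other, so reads may be shared among them. Of 17 crypt stem cell genes tested, 12 lay above 0 and 2 lay higher at an unadjusted p under 0.05. Both shares stand beside the 68.9% and 6.58% of all genes. The list's median was 0.08 (-0.01 after quantile normalization), below the 0.101 of all genes. With normal vehicle replicate 6 left out, 1 lay higher and 1 lower, beside 642 and 240 of all 20006 genes. Olfm4, one of these markers, lay at 365 ± 108 and 554 ± 265 RPKM (log2 0.53, adjusted p = 0.711).

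The list of Reg and antimicrobial genes had the lowest median apart from the pancreas genes. It also holds genes outside the Reg family, such as Retnlb. The secreted Reg lectins protect the mucosa from bacteria, and several are also made by pancreatic acinar cells. Of 14 Reg and antimicrobial genes tested, 0 were called, and 2 lay above 0, beside 68.9% of all genes. At an unadjusted p under 0.05, 6 lay lower and none higher, beside 0.6% and 6.58% of all genes. The median log2 difference was -0.93 as deposited, -1 after quantile normalization and -1.09 without normal vehicle replicate 6. The members' summed level had a lowest, median and highest value of 2856, 8915 and 10367 RPKM on the normal and 2252, 3032 and 3519.9 RPKM on the rescue diet.

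The normal diet libraries were split for the Reg3 genes. Reg3b was at 4761, 5917, 4778 and 4664 RPKM in normal replicates 1 to 4 and at 273 and 240 RPKM in replicates 5 and 6. On the rescue diet it was at 572, 696, 541, 298, 82.7 and 71.6 RPKM in replicates 1 to 6. The log2 difference was -2.78 (SE 0.96, limma adjusted p = 0.58), and the groups overlapped through normal replicates 5 and 6. Reg3g showed the same split, with 828 to 1495 RPKM in normal replicates 1 to 4, 59.3 and 47.3 RPKM in replicates 5 and 6, and 51.8 to 172 RPKM on the rescue diet. Reg3a had the smallest p of all genes that lay lower. It was at 24.3, 26.8 and 24.9 RPKM in normal replicates 1 to 3 and at 4.30 to 6.35 RPKM in the other normal libraries, against 0.805 to 5.61 RPKM on the rescue diet (log2 -2.11, SE 0.46, adjusted p = 0.226).

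Other members of the list lay lower in mean too. Reg3d went from 16.2 ± 7.31 to 2.90 ± 2.5 RPKM (log2 -2.61, SE 0.65, limma adjusted p = 0.470), and normal replicate 5 alone lay within the rescue range. Reg2 spread from 2.44 to 446 RPKM with normal feed and from 0 to 8.53 RPKM with rescue feed. Reg1, the most abundant of the named Reg genes on the rescue diet, went from 1588 ± 555 to 1075 ± 361 RPKM (log2 -0.57, adjusted p = 0.713). Retnlb, a goblet cell antibacterial protein, ran from 0.087 to 4.86 RPKM with normal feed and from 0 to 0.641 RPKM with rescue feed (log2 -1.35). The share of pancreas and amylase genes in summed RPKM was 5.89%, 4.4%, 10.9%, 0.713%, 2.78% and 34.4% in normal replicates 1 to 6 and 0.592%, 1.16%, 4.53%, 0.594%, 0.0169% and 1.08% in rescue replicates 1 to 6. With the level of the pancreas genes as a covariate the Reg list's median was -1.52.

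Of 28 exocrine pancreas genes tested, 0 were called, 21 lay lower at an unadjusted p under 0.05, and 0 lay above 0. Among all genes 0.6% lay lower at that p and 68.9% lay above 0. The median log2 difference was -2.87. Without normal vehicle replicate 6 it was -2.35 and the 21 became 3, beside 240 of all 20006 genes lower in that fit. With the level of the pancreas genes themselves as a covariate the median was 0.09. The covariate is the mean of these same genes, so a median near 0 follows from how it was made. Prss1, a trypsinogen, was at 123, 90.6, 96.7, 13.3, 14.4 and 305 RPKM in normal replicates 1 to 6. On the rescue diet it ran from 0 to 34.7 RPKM (log2 -3.23, SE 1.11, limma adjusted p = 0.58). Amy2a5, a pancreatic amylase with near-identical copies, ran from 1058 to 52789 RPKM and from 9.30 to 7038 RPKM. Nupr1, a stress gene active in acinar cells, ran from 12.3 to 96.4 RPKM with normal feed and from 9.54 to 21.9 RPKM with rescue feed (log2 -1.48). It was counted with the Paneth cell genes and is not one of the 28.

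Casp9, the initiator caspase of the mitochondrial death pathway, was named by the rule as lower on the rescue diet, and its values followed the pancreas genes. It was at 54.2, 27.9, 67.2, 6.5, 23.5 and 268 RPKM in normal replicates 1 to 6, highest in the same library as Prss1, and at 4.02 to 32.3 RPKM on the rescue diet (log2 -2.11, limma adjusted p = 0.567). In RefSeq on GRCm38.p6, Casp9 overlaps the gene of the pancreatic elastase Cela2a by 1025 bases, so reads of Cela2a may be counted as Casp9. The libraries were directional, and whether the authors' counting used strand is not given in the sources used here. Pdia2, a pancreas-enriched disulfide isomerase, was likewise highest in normal replicate 6, at 134 RPKM, and ran from 2.5 to 24.8 RPKM on the rescue diet.

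Other cell types held in the tissue had medians nearer to that of all genes. They were 0.19 for 18 Paneth cell genes, 0.25 for 14 goblet cell genes, 0.13 for 17 enteroendocrine genes and 0.14 for 11 tuft cell genes, beside 0.101 for all genes. Goblet genes had 4 members higher and 1 lower at an unadjusted p under 0.05, and 0 and 1 without normal vehicle replicate 6. Paneth cell genes had 0 higher and 1 lower (Nupr1) at that p, and 0 and 2 without that replicate. With every library kept, 6.58% of all genes lay higher and 0.6% lower at that p. Without normal vehicle replicate 6, 642 of all 20006 genes lay higher and 240 lower. Medians were -0.02 for 17 smooth muscle genes, 0.06 for 14 T cell genes and 0.13 for 7 B and plasma cell genes, and no member of these 3 lists had an unadjusted p under 0.05. The intestinal transcription factors (median 0.11, -0.05 after quantile normalization) and cytosolic ribosomal proteins (0.09 and -0.06) changed sign with the scaling.

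**Figure D4:**
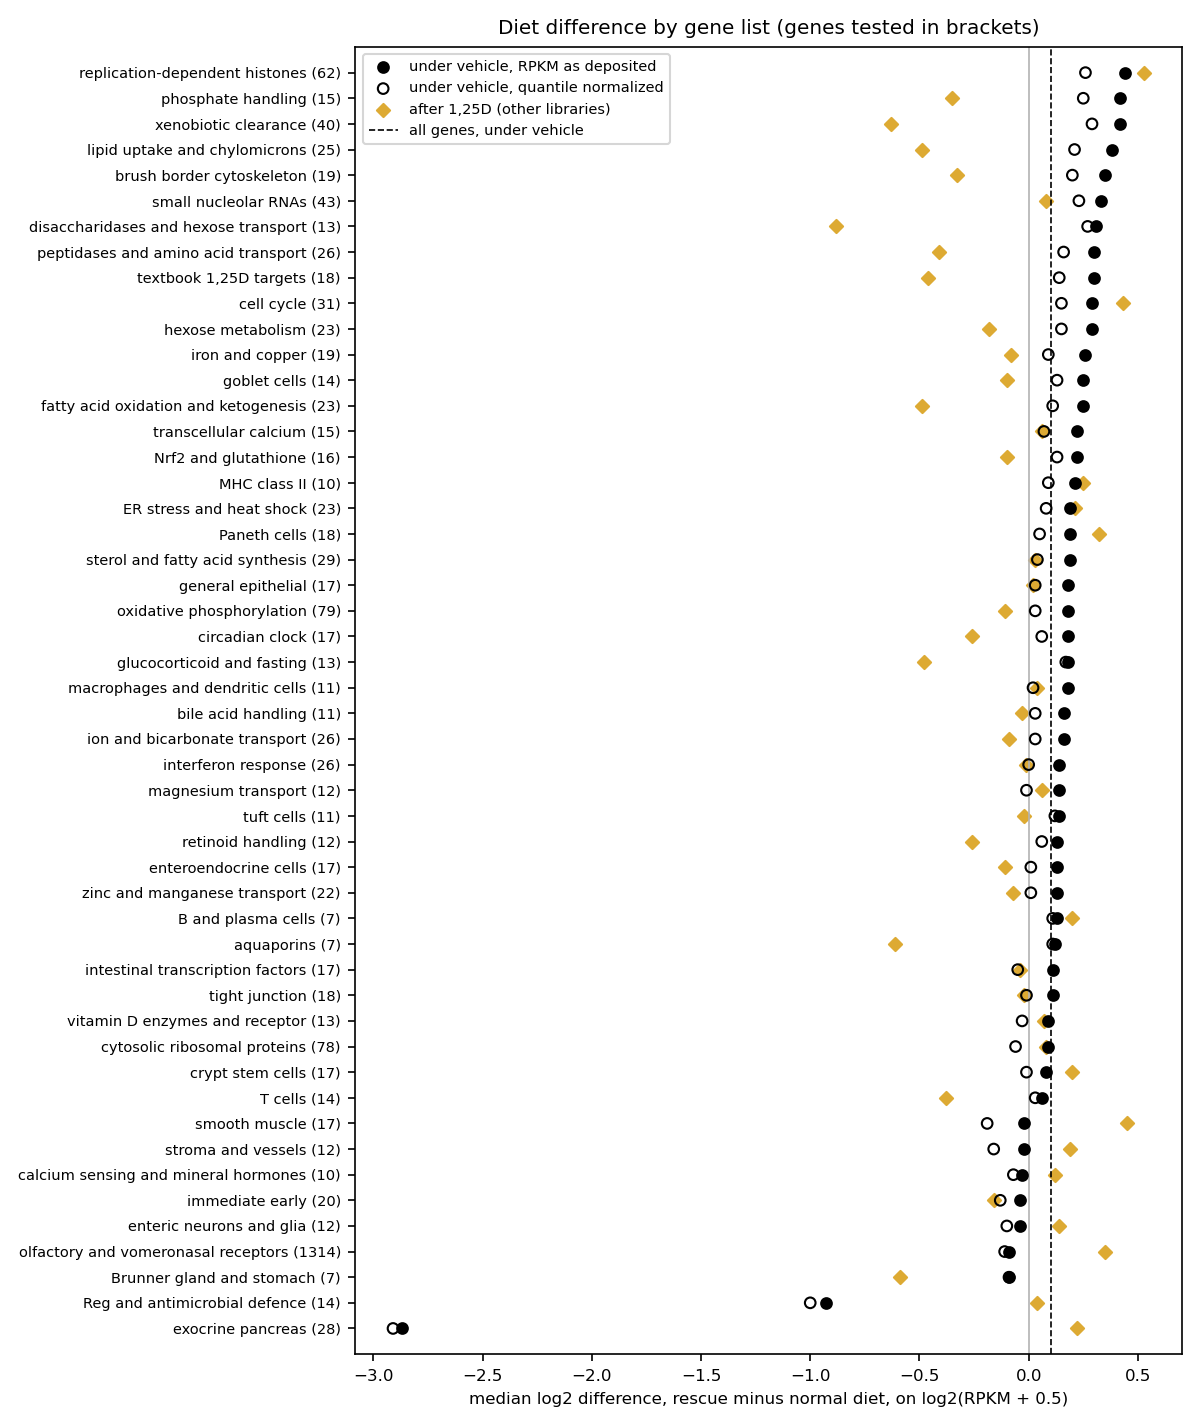
Median log2 difference, rescue minus normal diet, of 50 gene lists under vehicle (filled circles, deposited RPKM; open circles, quantile normalized) and after 1,25D (diamonds, other libraries); the dashed line is the median of all genes under vehicle, 0.101. The exocrine pancreas list (-2.87) and the Reg and antimicrobial list (-0.93) lie far to the left under vehicle. The xenobiotic list is at 0.42 under vehicle and -0.63 after 1,25D. Lists near 0, such as tight junction (0.11 and -0.01 when quantile normalized), change sign with the scaling.

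The same diets were compared in the 12 libraries of mice that had received 1,25D 6 h before, which share with the vehicle comparison only the estimate of spread. There 0 genes were called higher and 2 lower (0.01%), Upb1 and Sepp1. At an unadjusted p under 0.05, 1035 genes (5.17%) lay higher and 641 (3.2%) lower, and the median of all genes was 0.118. Across the 20006 genes, which are not independent of each other, the diet differences under vehicle and after 1,25D had a Pearson r and a Spearman rho of -0.17 each. Of the 43 genes apart and higher on rescue under vehicle, 24 lay above 0 after 1,25D (55.8%, beside 70.7% of all genes), 4 had an unadjusted p under 0.05 on the same side, and 0 were apart again. Both genes apart and lower under vehicle lay above 0 after 1,25D, Slc41a1 at 0.12 and BC064078 at 0.55 (unadjusted p = 0.0405 in the limma fit).

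The 2 leading genes were on the other side of 0 after 1,25D. Maoa lay at 23 ± 3.53 on the normal and 19.2 ± 4.88 RPKM on the rescue diet (SD, n = 6 each; log2 -0.28, limma adjusted p = 0.681). The difference between its diet effects was 1.19 on the log2 scale (SE 0.23, adjusted p = 0.0937). Akr1c13 lay at 64.1 ± 4.07 and 54.6 ± 9.12 RPKM (log2 -0.24), with a difference between diet effects of 0.89 (SE 0.16, adjusted p = 0.0937). Neither difference passed the test.

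Enterocyte lists took opposite signs in the 2 comparisons. After 1,25D the xenobiotic list had a median of -0.63 with 20 of 40 genes lower at an unadjusted p under 0.05, the lipid list of -0.49 with 15 of 25 lower, and the disaccharidase list of -0.88 with 8 of 13 lower. Lct had a log2 difference of -2.02 after 1,25D, Fabp2 of -0.99 and Abcb1a of -0.69, against 1.74, 1.19 and 0.86 under vehicle. The tests of these 3 differences gave adjusted p = 0.261, 0.187 and 0.133 by limma. Lists of dividing cells kept their side, with medians of 0.43 for the cell cycle and 0.53 for histones after 1,25D. In them 15 of 31 and 39 of 62 genes lay higher at an unadjusted p under 0.05. Among all genes after 1,25D, 5.17% lay higher and 3.2% lower at that p. The pancreas list's median was 0.22 and the Reg list's 0.04 after 1,25D.

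Upb1, the last enzyme of pyrimidine breakdown, was the only gene whose diet effect differed between the injections past the threshold (1 of 20006, 0.005%). Under vehicle its lowest, median and highest values were 3.08, 3.73 and 5.26 RPKM on the normal and 4.29, 5.82 and 6.63 RPKM on the rescue diet (log2 0.51, limma adjusted p = 0.651). After 1,25D its mean was 9.5 ± 2.01 RPKM on the normal and 3.61 ± 1.55 RPKM on the rescue diet (log2 -1.36, adjusted p = 0.0152). The difference was 1.86 (SE 0.29, adjusted p = 0.024). The number of genes whose diet effect differed was 0 in 7 of the 12 fits that left out 1 vehicle library, 7 without normal vehicle replicate 5 and 16 without rescue vehicle replicate 6. Sepp1, the selenium carrier named Selenop in RefSeq, was at 261 ± 102 and 232 ± 83.4 RPKM under vehicle (log2 -0.14, 95% interval -0.79 to 0.52) and at 497 ± 127 and 145 ± 85.5 RPKM after 1,25D (adjusted p = 0.0417).

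**Figure D5:**
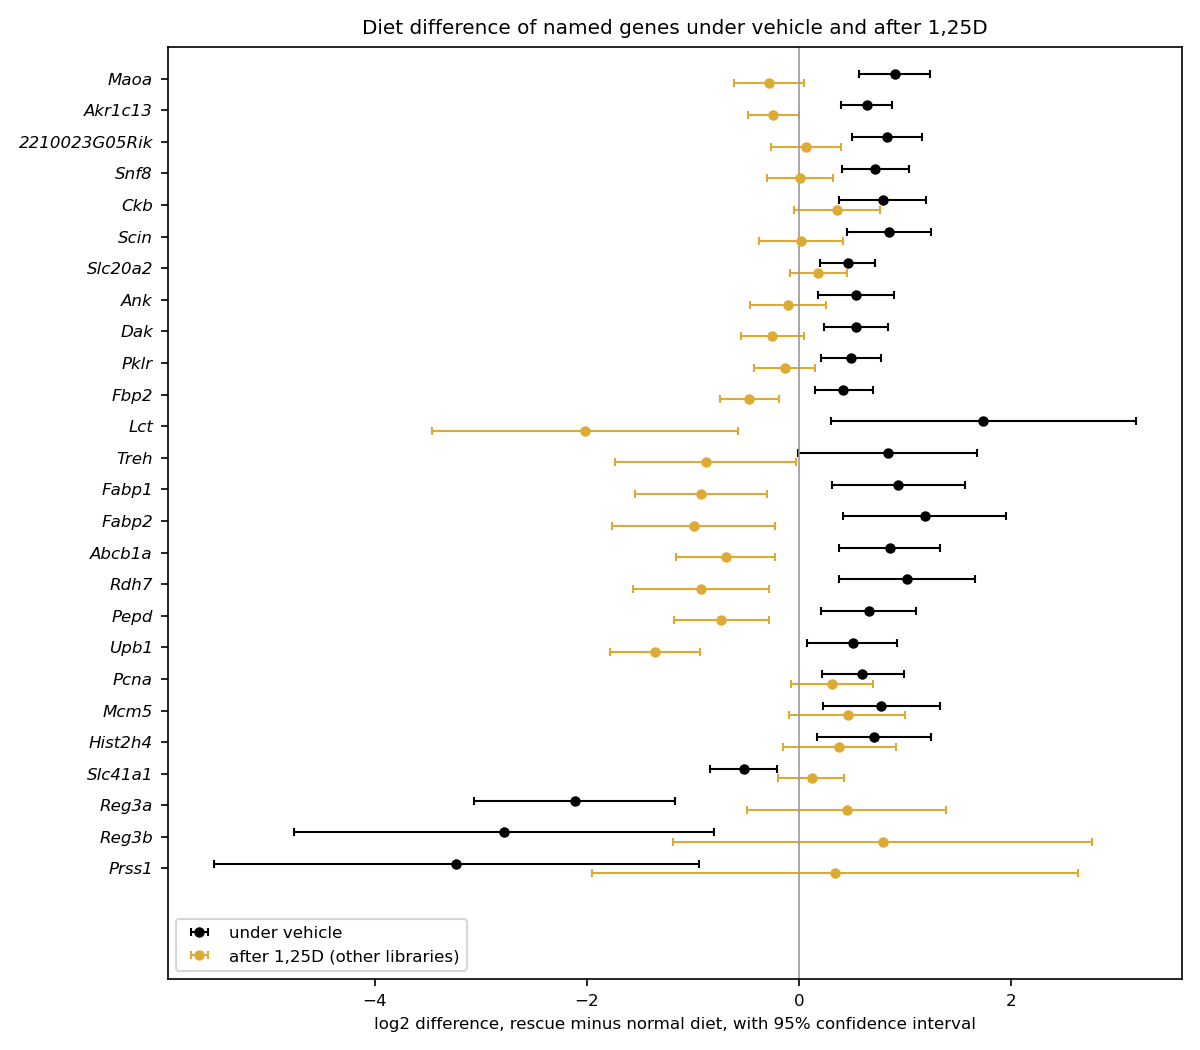
Log2 difference, rescue minus normal diet, with its 95% confidence interval for 26 genes under vehicle (black) and after 1,25D (yellow, other libraries; n = 6 libraries per group). Enterocyte genes such as Lct (1.74 and -2.02) lie on opposite sides of 0, while Pcna, Mcm5 and Hist2h4 lie above 0 in both.

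Beside the diet difference stand the effects of 1,25D on each diet, which share the vehicle libraries with it. For Maoa the log2 effect of 1,25D was 0.41 with normal feed and -0.77 with rescue feed. For Fabp2 it was 1.70 and -0.48, for Lct 3.25 and -0.50, and for Slc5a1 1.00 and -0.53. For Cyp24a1 it was 9.14 and 9, and for S100g 3.83 and 3.04. The effect on the 3 absorptive genes, Fabp2, Lct and Slc5a1, lay above 0 on the normal diet (limma adjusted p = 0.0142, 0.012 and 0.258). On the rescue diet it lay below 0, but the intervals included 0 (-1.25 to 0.29, -1.95 to 0.94 and -1.35 to 0.29). A fall of these 3 genes on the rescue diet was therefore not shown. The effect on Cyp24a1 and S100g lay above 0 on both diets.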

How the data were processed

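RNA of the duodenum was sequenced after removal of ribosomal RNA, in directional libraries, per the labels' protocols. The authors deposited 1 table of RPKM per library, per the file headers. The submitters' processing notes list TopHat and mm9, without a version or role. Which quantifier and which annotation were used is not given in the sources used here. No coordinates are printed, since the reference at hand was GRCm38. Entries that share a symbol were summed (3470 of 25410 symbols), and genes with 0.5 RPKM or more in at least 6 of 24 libraries were tested. The tables hold no read totals, so absolute depth is unknown. limma 3.58.1 in R 4.3.3 was fitted with an intensity trend to log2(RPKM + 0.5) of all 24 libraries, as 4 group means (20 residual degrees of freedom). Log2 differences on this scale understate those of low genes. Tests were two-sided, and the procedure was tested on simulated data. Single values per library were compared by exact permutation over 924 splits. Intervals are 95% intervals of the fit. Python 3.11.15 with scipy read the tables.

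The 50 lists and the members were chosen with earlier results of these data known. With under 20 called genes, the rule names the 12 genes per direction with the smallest p, a log2 difference of 0.58 or more and a mean of 2 RPKM or more, up to 4 members per list, and fixed calcium, phosphate and sugar genes. The text names a part of these. Akr1c12, Lamb3, Nadk, Adss, Akp3, Cyp3a11, Apoa4, Reg1, Reg2, Reg3g, Amy2a5, BC064078, Upb1 and Sepp1 were added after their values were seen. Alternatives covered pseudocount, filter, scaling, weights, covariates, summing of entries, a block for replicate number, a fit of the vehicle libraries alone, the threshold and each library left out. For list medians, quantile normalization, median-of-ratios scaling, a pancreas covariate and leaving out normal vehicle replicate 6 were run.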

Additional observations from a re-analysis of the deposited data

Results flagged for a closer look

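A library stands apart in its group where its gap to the nearest library is a larger part of the group's range than Dixon's critical value for 6 libraries, which chance alone gives in about 1 of 20 groups. Of 168 groups of 6 libraries looked at, 10 had such a library, a share near that of chance. Gaps of genes were taken on log2(RPKM + 0.5) and those of single values unscaled, while the values below are RPKM and percent. Snf8 was low in normal vehicle replicate 6 (4.94 RPKM). In rescue vehicle replicate 6, Sis (296 RPKM), Slc2a2 (55 RPKM) and Fabp2 (258 RPKM) were low. Rescue vehicle replicate 5 was low for Amy2a5 (9.3 RPKM) and high for Trpv6 (0.529 RPKM). Galk1 was high in rescue vehicle replicate 4 (14.5 RPKM). The share of exocrine pancreas and amylase genes was high in normal vehicle replicate 6 (34.4%) and, at a lower level, in rescue vehicle replicate 3 (4.53%). The share of smooth muscle genes was high in normal vehicle replicate 1 (0.222%).

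For Upb1 the diet effect under vehicle exceeded that after 1,25D by 1.86 on the log2 scale (limma adjusted p = 0.024). Under vehicle it ran from 3.08 to 5.26 RPKM with normal feed and from 4.29 to 6.63 RPKM with rescue feed.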

How the results depend on the processing

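With pseudocounts of 0.1 and 1, other filters, other scalings, weights, covariates, the highest entry per symbol and the vehicle libraries alone, 0 genes were called for diet under vehicle in either direction (limma). At an adjusted p threshold of 0.1 the count was also 0. Leaving out 1 library gave 0 to 4 genes called higher and 0 lower, with 642 to 1896 higher and 77 to 240 lower at an unadjusted p under 0.05. The 4 were called without normal vehicle replicate 4, and the cause was not tested. With the vehicle libraries alone 736 lay higher and 102 lower, with array weights 664 and 149, without normal vehicle replicates 1 and 6 574 and 181, and, with RPKM rescaled without pancreas genes, an alternative chosen after seeing the data, 471 and 370 (46.1% of genes above 0).

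The number of genes whose diet effect differed between injections, 1 in the reported fit, was 2 with quantile normalization, 0 with median-of-ratios scaling, 32 with array weights, 0 with the exocrine pancreas covariate, 0 with the smooth muscle covariate, 0 without normal vehicle replicates 1 and 6, 0 with RPKM rescaled without pancreas genes and 5 with quantile normalization and array weights, also chosen after seeing the data. It ran from 0 to 16 with 1 library left out. The cause was not tested. Slc20a1 was at -0.02 with quantile normalization. Amy2a5 was at 0.23 with the exocrine pancreas covariate, which is itself made from pancreas genes, so this value says nothing about its diet difference. S100g was at -0.50 and Vdr at -0.08 without normal vehicle replicates 1 and 6, and at -0.04 and -0.05 with quantile normalization and array weights. With 1 library left out S100g ran from -0.35 to 0.80 and Sepp1 from -0.33 to 0.04.

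Replicate numbers did not pair the libraries: deviations of same-numbered libraries correlated between -0.26 and 0.30, and 0 of 6 numbers had their own partner as the closest. With the replicate number as a block, 0 genes were called in either direction, 1285 lay higher and 116 lower at an unadjusted p under 0.05, and 1 gene differed between injections. Absolute depth is unknown, so no limit of detection is given.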

Other observations

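Genes of the glucocorticoid and fasting response differed more between libraries of one diet than between diets. These include Sgk1, a kinase that controls sodium transport, Tsc22d3, a mediator of glucocorticoid action, and Angptl4, an inhibitor of lipoprotein lipase. The list's level relative to the mean of the 12 vehicle libraries was 1.30 on the log2 scale in normal replicate 4 and 1.51, 1.14 and 0.66 in rescue replicates 1, 4 and 5. It was -1.05 and -0.85 in normal replicates 1 and 6 and between -0.87 and -0.77 in rescue replicates 2, 3 and 6. Sgk1 ran from 5.61 to 137 RPKM with normal feed and from 7.02 to 191 RPKM with rescue feed. Angptl4 ran from 0.881 to 20.9 and from 1.42 to 48.2 RPKM. Tsc22d3 ran from 28.5 to 116 and from 31.1 to 132 RPKM. No member of the 13 tested had an unadjusted p under 0.05 for diet (limma), beside 6.58% higher and 0.6% lower of all genes. The list's median was 0.18. The feeding state and hour of death of the mice are not given in the labels.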
